A study of Mus musculus with 21 samples.

Results

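Mammary tumours of physically active and of sedentary mice were compared at week 12 by RNA sequencing. The comparison holds 6 of the 21 libraries of the study, assigned by their labels: 3 tumours of active and 3 tumours of sedentary mice, each labelled as a biological replicate and used across all 19241 genes listed. Every mouse in both groups carried MMTV-PyMT, so no tumour without the transgene stands in the comparison, and both groups are labelled Week 12. The labels do not say from when the weeks were counted, how old the mice were, what their strain background was, or what kind of activity the active mice took. The other libraries of the study are tumours of week 18 and hematopoietic stem cells, and they are not analysed here.

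In MMTV-PyMT mice the promoter of the mouse mammary tumour virus drives the polyoma virus middle T antigen in mammary epithelium, and tumours arise there. A tumour taken whole also holds fat, vessels, connective tissue, nerve and immune cells, and in the mouse the mammary fat pads lie over body wall muscle and can contain a lymph node. Skeletal muscle fibres are recognised by fast or slow isoforms of myosin and troponin, by the proteins that release and take up calcium, and by the enzymes that buffer and regenerate ATP. In bulk RNA, fewer cells of a type and less RNA per cell cannot be told apart, and that holds for every gene group below.

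The tissue label was checked against its markers first. The epithelial genes Epcam, Cdh1, Krt8 and Krt18, which mark luminal mammary cells, were abundant in every library, with normalized counts of 15223, 15368 and 17130.0 for Epcam in sedentary replicates 1, 2 and 3. Epcam stood at 16592, 16068 and 6300.5 in active replicates 1, 2 and 3. Krt8 was 30150.0, 19166 and 30157 in sedentary and 29403, 32887 and 15275 in active tumours. The milk protein gene Csn3 was 239250.0, 132880.0 and 193240.0 in sedentary and 141320.0, 257630.0 and 39892 in active tumours. Active replicate 3 was thus the lowest of the 6 for Epcam, Krt8 and Csn3. Here and below, a level is a normalized count, which is the authors' count divided by 1 factor per library, and values are listed in the order of replicates 1, 2 and 3.

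Active replicate 3 stood apart from the other libraries. Its correlation with each of them over all genes, on the log2 scale, was between 0.881 and 0.924, while the other 5 libraries correlated with one another at 0.9504 to 0.975. The T cell list, which holds receptor and signalling genes of T lymphocytes, took 0.151% of its reads against 0.00405% to 0.00593% in the others. The B cell list took 0.17% against 0.00308% to 0.00566%, and the adipocyte list 2.72% against 0.126% to 0.607%. Ptprc, the CD45 antigen of white blood cells, was 12663 there and 949 to 1713 elsewhere. Every result is therefore given with all 6 libraries and again without active replicate 3. The libraries held 20838963 to 25764636 recovered reads. Sedentary replicate 1 also differed from the other sedentary tumours in its hypoxia and glycolysis genes, which took 1.38% of its reads against 0.57% to 0.949% in the others.

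**Figure D1:**
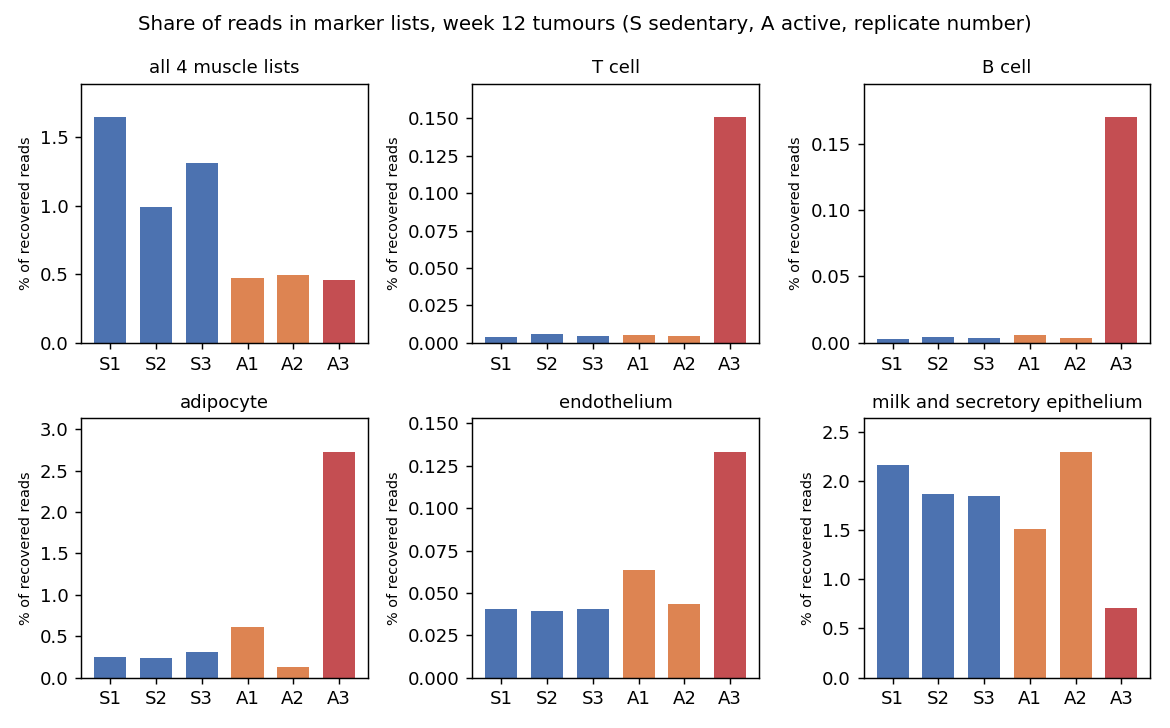
Share of recovered reads (percent, vertical axis starting at 0) taken by 6 marker lists in each library, with sedentary replicates S1 to S3 in blue, active replicates A1 and A2 in orange and active replicate 3 in red. The muscle lists took more in each sedentary library than in each active one, and A3 alone was high for T cell and B cell genes.

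The genes that differed most between the groups were skeletal muscle genes, and they were lower in active tumours. With 6 libraries, 99 of 19131 genes tested passed an adjusted p of 0.05 with limma, 1 higher and 98 lower in active tumours. That is 0.00523% and 0.512% of the genes tested. Of the 98 lower genes, 70 belonged to 4 skeletal muscle lists and 28 did not. Below, passed, rose and fell refer to this limma test unless another tool is named. Without active replicate 3, 54 of 18874 genes passed, 3 higher (0.0159%) and 51 lower (0.27%). Of these 51, 32 were muscle list genes and 19 were not. The fits shared 41 genes, 41.4% of the calls made with 6 libraries and 75.9% of those made with 5, and 26 of the 41 were muscle list genes. Over all genes tested, the median log2 fold change, active over sedentary, was 0.01 with 6 libraries and 0.00 with 5.

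A gene is called separated below where all libraries of one group lay above all of the other. With 6 libraries, active tumours lay above at 835 genes, 4.36% of those tested, and below at 914, 4.78%. Without active replicate 3 the counts were 1832 and 1856, or 9.71% and 9.83%. These shares are the background for the counts of separated list members below. A gene separated with 6 libraries stays separated by definition when 1 library is left out, so separation in both fits is no added support. The count of 99 calls depended on single libraries. It was 15 without sedentary replicate 1, 34 without sedentary replicate 2, 9 without sedentary replicate 3, 72 without active replicate 1 and 68 without active replicate 2. Outside the muscle lists the counts of calls were 29 with 6 libraries and 22 without active replicate 3.

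**Figure D2:**
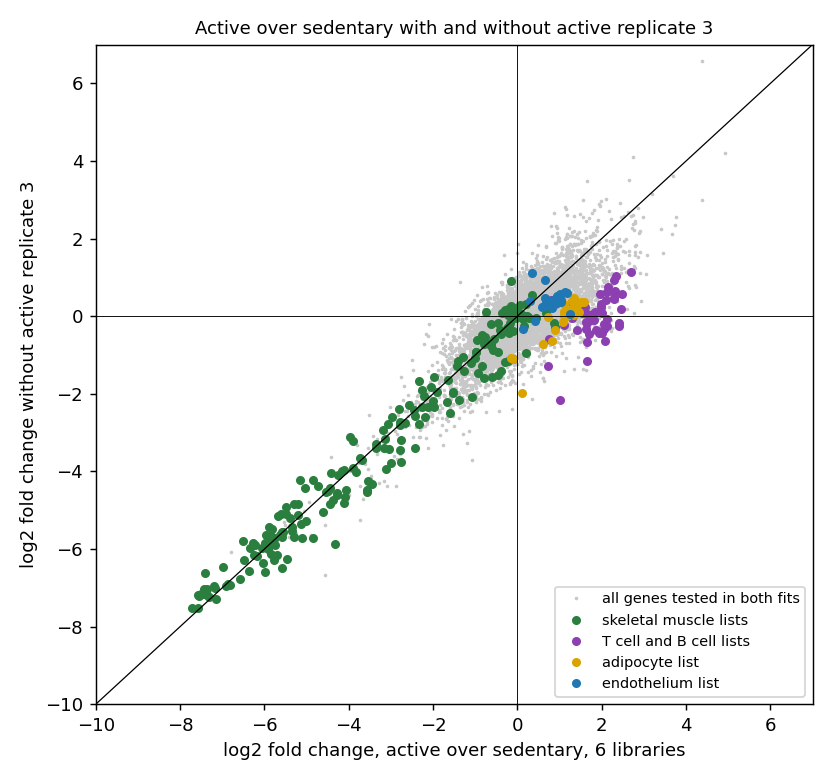
Log2 fold change of active over sedentary tumours per gene with 6 libraries (horizontal axis) and without active replicate 3 (vertical axis), with the line of equality. Muscle list genes (green) run along the line down to about the same low values in both fits, whereas T and B cell genes (purple) and most adipocyte genes (yellow) are positive with 6 libraries and near 0 without active replicate 3.

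Together the 4 muscle lists took 1.65, 0.992 and 1.31% of reads in sedentary replicates 1, 2 and 3 and 0.474, 0.495 and 0.46% in active replicates 1, 2 and 3. All sedentary libraries were thus above all active ones, and active replicate 3 lay beside the other active tumours here. Of 230 list genes, 210 were listed in the data and 207 were tested. With 6 libraries 70 of them fell and none rose, 149 were separated downward and none upward, and the median log2 fold change was -3.12. Without active replicate 3, 32 fell, 161 were separated downward and 2 upward, and the median was -3.39.

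The contractile list, which holds sarcomere proteins and the chaperones and scaffolds that build them, had the lowest median, -4.68 over 74 genes with 6 libraries and -4.55 without active replicate 3. Of the 74, 33 fell in the first fit and 15 in the second. Myh4, the fast IIb myosin heavy chain, had normalized counts of 41654, 15290.0 and 29456 in sedentary and 334, 98.9 and 79.2 in active tumours. Its log2 fold change was -7.58 (SE 0.67, limma adjusted p = 0.019) and -7.18 without active replicate 3 (limma adjusted p = 0.0691). The lowest sedentary library was far above the highest active one, although the sedentary libraries themselves spread widely. Tnnc2, fast troponin C, was 8349, 4782 and 5464 against 83.8, 19.6 and 23.4, with a log2 fold change of -7.43 (limma adjusted p = 0.0172, and 0.0662 without active replicate 3). Xirp2, an actin-binding protein of the myotendinous junction and intercalated disc, was 2570.0, 1275 and 1742 against 30.1, 2.06 and 5.58. The log2 fold change of -7.71 passed the test with 6 libraries (limma adjusted p = 0.0439) and not without active replicate 3 (0.169).

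Members of the contractile list with less spread between replicates kept their call in both fits. Myoz1, a Z-disc protein of fast fibres that binds calcineurin, was 1287, 682 and 986 in sedentary and 9.11, 3.09 and 2.23 in active tumours. Its log2 fold change was -7.54 (SE 0.50, limma adjusted p = 0.01) with 6 libraries and -7.21 (0.037) with 5. Myoz3 was 178, 117 and 118 against 2.73, 3.09 and 2.23, and Myoz2 was 22.8, 18.97 and 23.4 against 0 in all 3 active libraries. Klhl40, a kelch protein that stabilises thin filaments, was 161, 133 and 102 against 0.911, 0 and 1.12. Casq1, the calcium store protein calsequestrin of fast fibres, was 1902, 963 and 1362 against 20.04, 24.7 and 20.1. For each of Myoz2, Myoz3, Klhl40 and Casq1, the limma adjusted p was at most 0.00681 with 6 libraries and at most 0.0243 with 5.

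Further isoforms of fast and slow fibres are given as single genes chosen after their values were seen, and the 2 kinds were not compared by a test. Acta1, skeletal alpha-actin, was 25322, 12463 and 18924 in sedentary and 355, 61.8 and 186 in active tumours. Mylpf, the fast regulatory light chain, was 4608, 2805 and 2988 against 54.7, 13.4 and 30.1, and Tnni2, fast troponin I, was 4974, 3080.5 and 3669.7 against 65.6, 13.4 and 33.5. Actn3, the fast fibre alpha-actinin, was 6720.1, 2953 and 4802 against 63.8, 13.4 and 24.5. All 4 fell with 6 libraries (limma adjusted p = 0.0262, 0.0169, 0.0185 and 0.0185) and did not pass without active replicate 3 (0.107, 0.0661, 0.0773 and 0.081). Among slow isoforms, the myosin heavy chain gene Myh7 had at most 5.58 in any library and troponin I gene Tnni1 at most 17.8. The slow troponin genes Tnnt1 and Tnnc1 reached 16.7 and 12.2, and Myl3 was at 0 in all 6 libraries.

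Of 3 muscle genes that fell with 6 libraries, Ckm and Mylpf are in the muscle lists and Smpx is not. Their promoters are shown as picked examples that hold a match. Each is the 250 bases before the RefSeq start in build GRCm38.p6, 5′ to 3′ on the gene's strand, with matches in capitals. In Ckm and Mylpf the capitals are the E-box CAGCTG, a motif bound by the MyoD family. In Smpx they are CTANNNNTAG, a pattern looser than the site of MEF2 factors, whose middle bases are A or T. The match in Smpx has a G among its middle bases. The windows are chr7:19410844-19411093 on the plus strand for Ckm, chr7:127211358-127211607 on the plus strand for Mylpf and chrX:157698723-157698972 on the plus strand for Smpx.
Ckm: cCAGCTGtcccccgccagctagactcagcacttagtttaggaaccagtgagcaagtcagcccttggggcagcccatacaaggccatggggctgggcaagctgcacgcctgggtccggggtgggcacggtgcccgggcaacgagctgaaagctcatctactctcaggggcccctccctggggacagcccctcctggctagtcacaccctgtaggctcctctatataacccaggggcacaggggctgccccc
Mylpf: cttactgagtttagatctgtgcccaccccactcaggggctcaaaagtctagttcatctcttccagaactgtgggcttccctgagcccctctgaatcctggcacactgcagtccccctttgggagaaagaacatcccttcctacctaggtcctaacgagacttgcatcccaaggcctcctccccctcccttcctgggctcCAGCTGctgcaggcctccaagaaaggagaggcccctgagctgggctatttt
Smpx: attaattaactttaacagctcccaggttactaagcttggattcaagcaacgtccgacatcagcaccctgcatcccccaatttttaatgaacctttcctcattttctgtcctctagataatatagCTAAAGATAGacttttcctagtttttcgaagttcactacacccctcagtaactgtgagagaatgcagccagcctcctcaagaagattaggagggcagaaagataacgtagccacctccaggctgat
Both motifs were searched on both strands, each reads the same on either strand, and none of the 3 windows held both. Of the 70 muscle list genes that fell with 6 libraries, 47 had a window in the RefSeq table. CAGCTG was present in 25 of them (53.2%) and in 3979 of all 27025 genes of the table (14.7%). CTANNNNTAG was present in 6 (12.8%) and in 1000 of all genes (3.70%). Over all 210 listed genes of the 4 muscle lists, whether they fell or not, 156 had a window, 54 of them with CAGCTG (34.6%) and 20 with CTANNNNTAG (12.8%). Among the 28 lower genes outside the muscle lists, 26 had a window, 5 of them with CAGCTG (19.2%) and 4 with CTANNNNTAG (15.4%). A match describes the letters of the window and says nothing of whether a factor was bound.

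The excitation and calcium list covers the proteins that turn a nerve signal into calcium release. Of 37 genes tested, 13 fell with 6 libraries and 7 without active replicate 3, with medians of -3.0005 and -3.12. Cacng1, the gamma subunit of the muscle calcium channel, was 89.98, 56.9 and 92.6 in sedentary and 0.911, 0 and 0 in active tumours. Hrc, which binds calcium in the sarcoplasmic reticulum, was 732, 419 and 638 against 12.8, 8.24 and 13.4. Jsrp1, a junctional reticulum protein, was 230.4, 149 and 179 against 3.64, 1.03 and 3.35. These 3 passed in both fits, with limma adjusted p of at most 0.01 with 6 libraries and 0.0387 with 5, and no active library approached a sedentary one.

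In the energy metabolism list, 21 of 73 genes fell with 6 libraries and 8 without active replicate 3, with medians of -2.75 and -2.77. Ckm, muscle creatine kinase, was 12876, 6243 and 9192 in sedentary and 119, 31.9 and 30.1 in active tumours. For Ckm the log2 fold change was -7.50 (SE 0.62, limma adjusted p = 0.0173) and -7.17 (0.0633) without active replicate 3. Eef1a2, the translation elongation factor isoform of muscle and neurons, was 1614, 706 and 1285 against 18.2, 1.03 and 4.46, a log2 fold change of -7.57 (limma adjusted p = 0.0439, and 0.167 with 5 libraries). Ampd1, muscle AMP deaminase, was 737, 407 and 574 against 6.38, 5.15 and 12.3, and Pgam2, muscle phosphoglycerate mutase, was 1211, 572 and 915 against 19.1, 12.4 and 13.4. Both passed in both fits, Ampd1 at 0.00835 and 0.0163 and Pgam2 at 0.00746 and 0.037 (limma adjusted p).

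Not every list gene was lower in active tumours. The genes in this paragraph were chosen after their values were seen. Tpm3, a tropomyosin with non-muscle isoforms, was 9108, 7899 and 9231 in sedentary and 8825, 9436 and 9452 in active tumours. Aldoa, the aldolase of muscle and many other tissues, was 45107, 21905 and 24577 against 24401, 34595 and 19908, with overlapping groups. Trarg1 and Slc2a4, which serve glucose uptake in muscle and in fat, were highest in active replicate 3, at 2065 and 2044 against 140.1 to 753 and 154 to 679 elsewhere. Des, the intermediate filament protein desmin of skeletal, cardiac and smooth muscle, was 3434, 2075 and 2482 against 172, 97.9 and 785, with separated groups, and passed only without active replicate 3 (limma adjusted p = 0.478 with 6 libraries and 0.0497 with 5).

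Among muscle regulators and myokines, 3 of 23 genes fell with 6 libraries and 2 without active replicate 3, and the medians were -0.47 and -1.15. Mstn, which encodes myostatin, a secreted inhibitor of muscle growth, was 424, 325 and 376 in sedentary and 1.82, 1.03 and 2.23 in active tumours. The replicates of each group were close, and the log2 fold change was -7.14 (SE 0.23, limma adjusted p = 0.00183) and -7.29 (0.0113) without active replicate 3. The group totals were 1063 and 5 recovered reads. Myf6, the MyoD family factor of mature fibres, was 40.8, 69.6 and 62.7 against 0 in all active libraries. It was at least 57.9-fold lower there, taking a floor of 3 reads over the active group, and at least 40.4-fold lower without active replicate 3. Myod1 and Myog, chosen after their values were seen, were low in all libraries and did not pass, with 26.4, 9.48 and 33.7 against 0.911, 0 and 0 and 2.40, 7.38 and 5.61 against 0.911, 0 and 0.

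**Figure D3:**
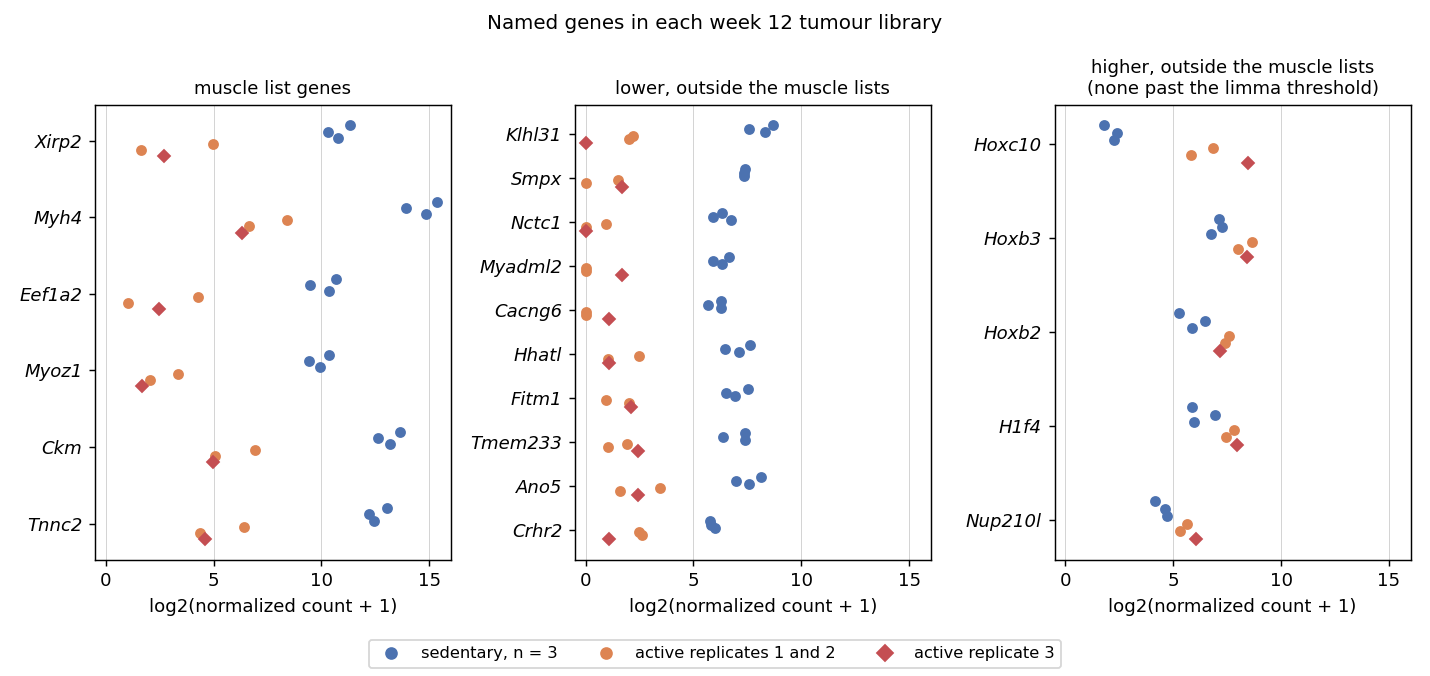
Level of the named genes in each library on the log2(normalized count + 1) axis, in 3 panels: muscle list genes with the largest decreases, genes outside the muscle lists that were lower in active tumours, and genes higher in active tumours that did not pass with limma. Each dot is 1 library. The 3 sedentary libraries (blue) lie apart from the 3 active ones (orange, and red for replicate 3) for every gene shown, because the rule for naming genes required it.

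Outside the muscle lists 28 genes fell with 6 libraries and 19 without active replicate 3. Of these, 10 in the first fit and 7 in the second met the rule for named genes, which asks for separated groups and for a group mean of 50 or more on the higher side. Outside means only absent from the 4 lists, which do not hold every muscle gene. Many genes named here, among them Klhl31, Smpx, Ano5 and Ak1, are muscle genes as well. The calls outside the lists are therefore not a count of non-muscle genes. The muscle lists' share of reads, given above, was higher in every sedentary than in every active library. Its part in the calls outside the lists was not tested. Klhl31 (chr9:77636500-77660127), a kelch protein of striated muscle, was 410.3, 189.7 and 321 in sedentary and 3.64, 3.09 and 0 in active tumours. Klhl31 had a log2 fold change of -6.78 (SE 0.68, limma adjusted p = 0.0262) and one of -6.07 (0.0276) without active replicate 3. Smpx (chrX:157698910-157752591), a small protein of muscle costameres, was 164, 161 and 161 in sedentary tumours, with closely matching replicates, and 1.82, 0 and 2.23 in active tumours. Its log2 fold changes were -6.29 (limma adjusted p = 0.0158) and -6.60 (0.037). Coordinates here and below are those of GENCODE M21 on GRCm38, the assembly named mm10 in the submitters' processing notes.

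Several others were at or next to 0 in every active library. Cacng6, a further gamma subunit of calcium channels, was 76.8, 49.5 and 75.8 against 0, 0 and 1.12, and Myadml2 was 99.6, 59.02 and 79.5 against 0, 0 and 2.23. Nctc1, a long non-coding RNA at chr7:142544609-142558596, was 77.99, 59.02 and 105 against 0.911, 0 and 0. Behind the active values of Cacng6, Myadml2 and Nctc1 stand 1, 2 and 1 recovered reads, so the size of their fold is not well determined. Each of the 3 passed in both fits (limma adjusted p = 0.01, 0.0214 and 0.00758 with 6 libraries and 0.0139, 0.0139 and 0.037 with 5). H19, the imprinted non-coding RNA at chr7:142575529-142578143, on the same stretch of chromosome 7 as Nctc1, was chosen after its values were seen. It was 1876, 2417 and 1642 against 407, 737 and 316, with separated groups and a log2 fold change of -2.10 that did not pass with limma (adjusted p = 0.183). On recovered reads the adjusted p of H19 was 2.48e-05 with DESeq2, but 0.169 with edgeR and 0.0855 with limma-voom.

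Crhr2, the urocortin receptor, was 53.99, 55.9 and 62.7 against 4.56, 5.15 and 1.12, with log2 fold changes of -3.81 (limma adjusted p = 0.0448) and -3.32 (0.0163) without active replicate 3. Ak1, the cytosolic adenylate kinase that is abundant in muscle, kept a sizeable level in active tumours. It was 1015, 821 and 991 against 226, 235 and 166, with log2 fold changes of -2.18 (SE 0.20, limma adjusted p = 0.0216) and -2.02 (0.0462). Hhatl, Fitm1, Tmem233 and Ano5 passed with limma with 6 libraries only. Fitm1, which serves lipid droplet formation, was 184, 90.6 and 122 against 0.911, 3.09 and 3.35 (limma adjusted p = 0.0172, and 0.0525 with 5 libraries). Ano5, a gene mutated in a limb-girdle muscular dystrophy, was 281, 125 and 191 against 10.02, 2.06 and 4.46 (0.037 and 0.143). Hhatl was 193, 87.5 and 136 against 4.56, 1.03 and 1.12, with log2 fold changes of -5.53 (limma adjusted p = 0.0213) and -5.31 (0.0827). Tmem233 was 167, 81.1 and 168 against 2.73, 1.03 and 4.46, with log2 fold changes of -5.26 (limma adjusted p = 0.021) and -5.59 (0.0506).

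Isl1 (chr13:116298281-116309689), a LIM homeodomain transcription factor of motor neurons and several developing organs, has a low level and was singled out after its values were seen. It was 16.8, 14.8 and 12.2 in sedentary tumours, 41 recovered reads in all, and 0 in every active library. It was at least 14.2-fold lower in active tumours with 6 libraries and at least 9.91-fold lower without active replicate 3. The limma adjusted p was 0.00292 and 0.0163, but edgeR's quasi-likelihood test on recovered reads gave adjusted p = 0.237.

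Fewer genes were called higher than lower in active tumours, 1 with limma and 14 with DESeq2 on 6 libraries, and 3 and 30 without active replicate 3. With 6 libraries the 1 gene that passed was the processed pseudogene Gm13394, named because no other gene did, at 0 in all sedentary and 6.38, 19.6 and 13.4 in active tumours (limma adjusted p = 0.033, and 0.134 without active replicate 3). It was at least 12.2-fold higher by the same floor. Pseudogenes share sequence with their parent genes, so their reads could belong to another copy. Without active replicate 3 the gene with the most reads of the 3 that passed was Pgk1-rs7, a processed copy of the glycolysis gene Pgk1. It was 0 in all sedentary libraries and 83.8, 106 and 0 in active replicates 1, 2 and 3. The value of 0 in active replicate 3 removed the call with 6 libraries (limma adjusted p = 0.00702 without that library and 0.97 with it). Pgk1 itself was 14447, 4457 and 5494 against 4385, 6756 and 4177, and the assignment of reads between the copies is uncertain.

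Of the 5 genes named for the smallest p-values upward with 6 libraries, 3 were Hox genes, which set the position of a cell along the body axis, and no Hox gene passed with limma. The list of Hox genes was made after the values were seen. Hoxc10 (chr15:102966796-102971893) was 2.40, 4.22 and 3.74 in sedentary and 115, 55.6 and 351 in active tumours. Its log2 fold change was 4.92 (SE 0.69, limma adjusted p = 0.0863) with 6 libraries and 4.21 (SE 0.39, 0.0633) without active replicate 3. The groups lay far apart in both fits. With 5 libraries the threshold was passed by edgeR (0.0466) and by DESeq2 (1.08e-07), and with 6 by DESeq2 (3.74e-08) but not by edgeR (0.0953), all as adjusted p on recovered reads. With limma-voom on recovered reads Hoxc10 passed in neither fit (adjusted p = 0.603 with 6 libraries and 0.183 with 5).

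Hoxb3 was 137, 153 and 106 against 396, 257 and 340.1 (log2 fold change 1.32, limma adjusted p = 0.226) and its neighbour Hoxb2 was 37.2, 87.5 and 58.01 against 191, 168 and 145 (1.52, 0.428). With DESeq2 on recovered reads both passed, at adjusted p = 0.000467 and 0.0208 with 6 libraries and 0.00872 and 0.034 with 5, and with edgeR neither passed in either fit. Hoxc9 was 6.00, 13.7 and 4.68 against 35.5, 15.5 and 119, highest in active replicate 3 as Hoxc10 was. With 6 libraries Hoxc10, Hoxb3, Hoxb2 and Hoxc9 were the separated members among 27 Hox genes tested, all upward, against 4.36% of all genes. With 5 libraries these 4 were separated upward and 2 were separated downward, namely Hoxa4, at 8.40, 7.38 and 8.42 against 4.56 and 2.06, and Hoxd8, at 99.6, 74.8 and 115 against 52.8 and 18.5 in active replicates 1 and 2. Over all genes tested, 9.71% were separated upward and 9.83% downward with 5 libraries. The median of the Hox list was 0.79 with 6 libraries and -0.01 without active replicate 3, when 12 of 27 were positive. The remaining genes named for the smallest p-values upward were H1f4, a linker histone, at 57.6, 120.1 and 60.8 against 222, 174 and 248 (limma adjusted p = 0.466), and Nup210l, at 16.8, 23.2 and 25.3 against 48.3, 38.1 and 64.7 (limma adjusted p = 0.479). On recovered reads the adjusted p of H1f4 was 0.0312 with DESeq2, 0.657 with edgeR and 0.425 with limma-voom. Without active replicate 3 DESeq2 gave 0.185.

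Gamma protocadherins, cell adhesion proteins that share their constant exons, had 5 of 22 members separated upward with 6 libraries and none downward, and none passed with limma. With 5 libraries, 5 were separated upward and Pcdhgb4 downward, at 462, 95.9 and 156 against 57.4 and 53.6 in active replicates 1 and 2. Over all genes tested, 4.36% were separated upward with 6 libraries and 9.71% with 5. Pcdhga8 was 13.2, 8.43 and 25.3 against 131, 55.6 and 45.7 and Pcdhga3 was 34.8, 55.9 and 58.9 against 236, 150.4 and 84.7. Pcdhgb5 was 44.4, 66.4 and 35.6 against 86.5, 179 and 142, and Pcdhga9 was 27.6, 14.8 and 39.3 against 108, 51.5 and 92.6. The median of the 22 was 0.31 with 6 libraries and -0.02 with 5, and the split of reads between overlapping members is uncertain. This list too was made after the values were seen.

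Endothelial genes, which mark the lining of vessels, had a positive median log2 fold change in both fits, and no member passed with limma. All 22 had a positive log2 fold change with 6 libraries and 20 of 22 without active replicate 3. The medians were 0.83 and 0.36. Separated upward were 7 and then 8 of 22, against 4.36% and then 9.71% of all genes tested, and none downward. The mean log2 level of the list was 8.392, 8.162 and 8.338 in sedentary and 8.982, 8.375 and 9.853 in active tumours. Active replicate 2 thus lay within the sedentary range, while its share of reads was 0.0433% against 0.0392% to 0.0407%. Emcn, a sialomucin of capillaries and veins, was 196, 155 and 174 in sedentary and 269, 214 and 365 in active tumours. The log2 fold change of Emcn was 0.66 (limma adjusted p = 0.97). Cdh5, vascular endothelial cadherin, was 1085, 925 and 963 against 1679, 1403 and 4299.9, with log2 fold changes of 1.13 and, without active replicate 3, 0.63 (limma adjusted p = 0.97 and 0.635). With DESeq2 on recovered reads the adjusted p of Cdh5 was 0.28 with 6 libraries and 0.0345 with 5. With 5 libraries edgeR and limma-voom on recovered reads gave an adjusted p of 0.36 and 0.399 for Cdh5. The receptor Tie1 was 448, 467 and 482 against 686, 554 and 1504, and the junction protein Esam was 299, 258 and 256 against 528, 285 and 950.1 with overlapping groups.

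**Figure D4:**
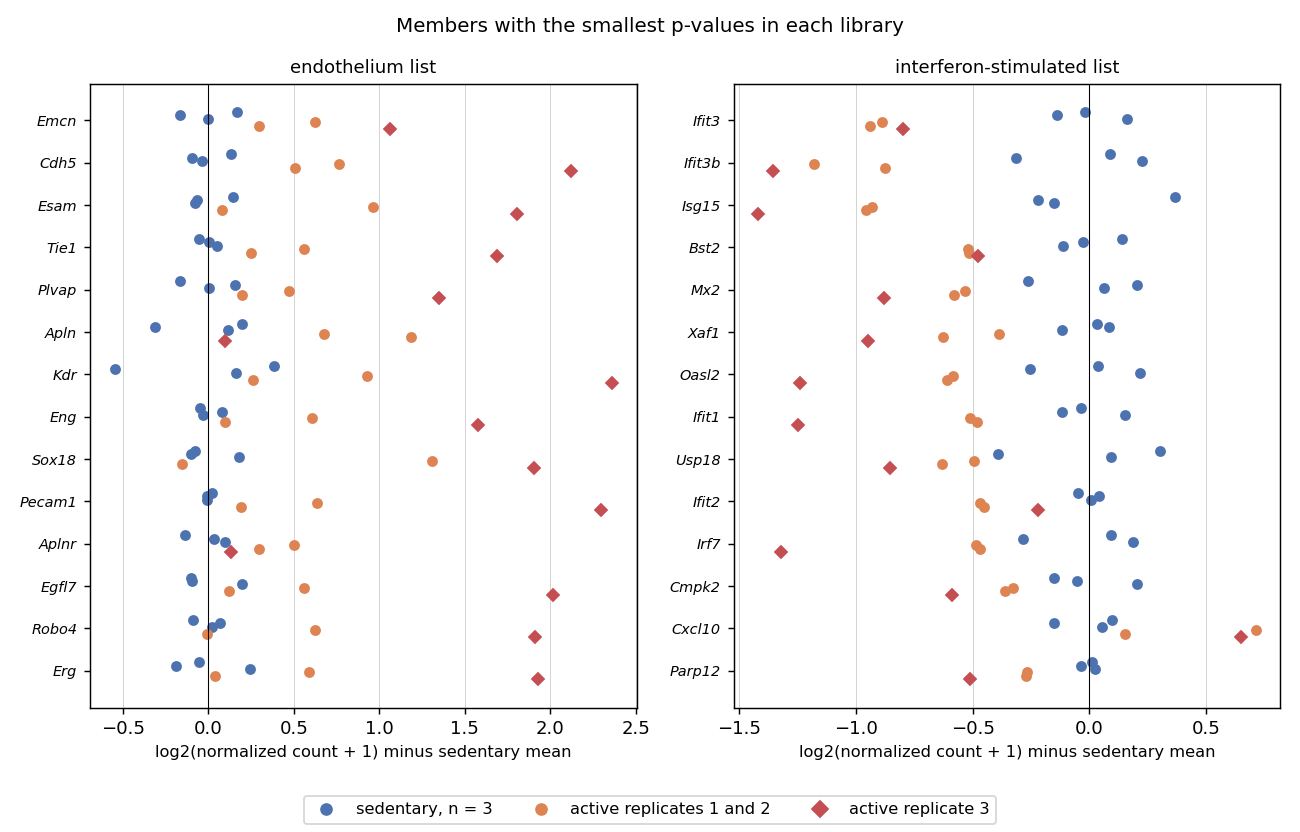
Level of the 14 members with the smallest p-values in the endothelium list (left) and in the interferon-stimulated list (right), as log2(normalized count + 1) minus the mean of the 3 sedentary libraries, 1 dot per library. Active replicate 3 (red) lies well above the other active libraries for most endothelial genes shown. For most interferon-stimulated genes shown, all 3 active libraries lie below the sedentary ones. Over the whole interferon-stimulated list this held for 25 of 54 genes tested.

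Interferon-stimulated genes, which are switched on through STAT and IRF factors when a cell senses interferon, had lower values in active tumours, and none passed with limma. Of 54 tested, 42 had a negative log2 fold change with 6 libraries and 50 without active replicate 3. Against 4.78% and then 9.83% of all genes tested, 25 and then 30 of the 54 were separated downward, and 1 upward in each fit. The medians were -0.35 and -0.27, and the share of reads was 0.406, 0.401 and 0.442% in sedentary and 0.36, 0.317 and 0.36% in active tumours. Ifit3, which acts in the antiviral RNA response, was 1998, 1839 and 2263 in sedentary and 1095, 1055 and 1163 in active tumours. Its replicates were close, and its log2 fold change was -0.88 (SE 0.15, limma adjusted p = 0.183) and -0.91 (0.273) without active replicate 3. On recovered reads the adjusted p of Ifit3 was 0.0713 with edgeR and 4.99e-08 with DESeq2.

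Its near-identical neighbour Ifit3b was 1031, 781 and 1136 against 428, 529 and 379, and reads may be split between these copies. Isg15, a ubiquitin-like modifier, was 1829.7, 1217 and 1276 against 743, 728 and 529.7, a log2 fold change of -1.10 (limma adjusted p = 0.426). On recovered reads the adjusted p of Isg15 was 0.00358 with DESeq2, but 0.323 with edgeR and 0.31 with limma-voom. Bst2, tetherin, was 3506, 3130.0 and 2946 against 2219, 2225 and 2288. The exception upward was the chemokine gene Cxcl10, at 109, 91.7 and 106 against 168, 113 and 161. Upstream, the list of interferon genes and receptors had a median of 0.16 over 14 genes tested, and 0.02 without active replicate 3.

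The Isg15 promoter is shown for the element through which such genes respond. It is the 250 bases before the RefSeq start, chr4:156200819-156201068 on the minus strand of GRCm38.p6, with matches to GAAANNGAAA on either strand in capitals.
Isg15: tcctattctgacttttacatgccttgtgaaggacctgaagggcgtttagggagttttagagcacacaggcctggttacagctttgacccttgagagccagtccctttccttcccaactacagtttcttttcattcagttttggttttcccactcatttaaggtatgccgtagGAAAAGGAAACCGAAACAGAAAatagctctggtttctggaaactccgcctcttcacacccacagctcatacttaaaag
GAAANNGAAA was present in 20 of the 40 interferon-stimulated genes with a window in the RefSeq table (50%) and in 936 of all 27025 genes (3.46%). The 3 matches in Isg15 overlap one another in 1 stretch.

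Lymphocyte genes were high in 1 active tumour and near the sedentary level in the other active tumours. The T cell list had a median log2 fold change of 1.82 over 29 genes with 6 libraries and 0.12 without active replicate 3, and no member passed with limma in either fit. Cd3e, a chain of the T cell receptor complex, was 16.8, 36.9 and 29.9 in sedentary and 38.3, 44.3 and 986 in active tumours. Its groups were separated, but narrowly, with 38.3 in active replicate 1 against 36.9 in sedentary replicate 2. Also separated were the receptor chain Cd247, at 31.2, 25.3 and 20.6 against 70.2, 34.00 and 872, and the adaptor Lat, at 25.2, 18.97 and 23.4 against 33.7, 38.1 and 1186. With 6 libraries 5 of 29 T cell genes were separated upward, and 5 of 29 with 5. Over all genes tested the shares were 4.36% and 9.71%. In the NK and cytotoxic list, with medians of 1.09 and 0.39, the chemokine Xcl1 was 2.40, 14.8 and 17.8 against 26.4, 26.8 and 32.3.

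The B cell list had medians of 2.05 and, without active replicate 3, -0.26 over 19 genes. Separated downward were none with 6 libraries and 5 of 19 without that library, where 13 had a negative log2 fold change. The 2 members separated upward in both fits were Pou2af1 and Bach2. Pou2af1, a B cell transcriptional coactivator, was 39.6, 44.3 and 53.3 in sedentary and 77.4, 77.3 and 1445 in active tumours, and Bach2, a repressor of lymphocyte differentiation, was 260.4, 293 and 305 against 349, 369 and 1282. The genes with the largest ratio of active replicate 3 to the highest other library, described without a test, included the antigen receptor gene Cd79a, at 5131 against 14.4 to 26.3, and Ighd, the heavy chain of IgD, at 4889 against 20.6 to 34.8. They further included Fcer2a (CD23), at 3308 against 1.03 to 25.2, and Cr2 (CD21), at 2273 against 5.47 to 17.9, both receptors of mature B cells. Glycam1, a ligand of L-selectin made in the high endothelial venules of lymph nodes and also secreted in milk, was 7884 against 9.27 to 44.3. Marco, a scavenger receptor of macrophages including those of lymph nodes, was 1250.1 against 1.03 to 10.02. The remaining genes by this ratio were Cacna1i, at 759 against 1.05 to 3.09, Il22ra2, at 635 against 0 to 3.74, and Iglc2, at 781 against 1.82 to 4.22.

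The list of lymph node stroma and follicle genes moved from a median of 1.14 to -0.20 without active replicate 3, and the plasma cell and immunoglobulin constant list from 1.11 to -0.27. Immunoglobulin variable genes, a list made after the values were seen, took 0.0136% of reads in active replicate 3 and at most 0.000473% elsewhere. Of 95 such genes tested with 6 libraries, 21 remained above the filter without that library.

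Antigen presentation and myeloid genes followed active replicate 3 in part. MHC class II genes had medians of 0.65 and 0.12 without active replicate 3. Their transactivator Ciita was 339.5, 527 and 619 against 673, 657 and 2711, separated in both fits, while the class II chain H2-Aa was 3542, 5402 and 7233 against 7416, 4959 and 14691. MHC class I and immunoproteasome genes had a median of 0.09 with 6 libraries and -0.25 without active replicate 3, when 15 of 16 were negative and 5 separated downward. Macrophage genes had medians of 0.17 and -0.02. Spp1, osteopontin, which macrophages and tumour epithelium both make, was 18274, 13365 and 19610.0 in sedentary and 6397, 3359.7 and 9680.4 in active tumours, separated and not past the threshold (limma adjusted p = 0.803 and 0.352). The scavenger receptor Msr1 was 101, 120.1 and 149 against 237, 140.1 and 216. In the monocyte and dendritic cell list the medians were 0.94 and 0.18, and Zbtb46, a dendritic cell factor, was 205, 152 and 177 against 299, 205 and 583.

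Genes of neutrophils, of the cytokines that drive blood cell formation and of chemokines had list medians between 0.07 and 0.31, and none passed with limma. The neutrophil medians were 0.31 and 0.21, and the receptor Cxcr2 was 2.40, 6.32 and 0.936 against 7.29, 7.21 and 166. The protease Mmp9 was 110.4, 99.1 and 103 against 156, 125 and 428. Cxcr2 and Mmp9 were the 2 separated neutrophil genes in both fits, among 16 and then 15 tested. Among myelopoietic cytokines the medians were 0.19 and 0.25, and 2 and then 3 of 16 were separated upward and none downward. Thpo, thrombopoietin, was 8.40, 20.02 and 18.7 against 21.9, 35.03 and 59.1, Tgfb1 was 895, 1049 and 1269.7 against 1333, 1270.3 and 2322, and Lif, leukaemia inhibitory factor, was 1229.8, 321 and 282 against 365, 285 and 128, high in sedentary replicate 1 alone. The chemokine list, which does not hold Cxcl10, had medians of 0.07 and 0.20 and no separated member. Of 21 checkpoint genes, Vtcn1 (B7-H4), an inhibitory ligand of T cells, was 812, 810.4 and 954 against 621, 481 and 390.3, and Lgals9, galectin-9, was 2980.3, 3568 and 3957 against 2718, 2905 and 2288. Both were separated downward without passing (limma adjusted p = 0.733 and 0.97).

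Adipocyte genes had no separated member in either fit. Their median was 1.19 with 6 libraries and 0.09 without active replicate 3. Adipoq, adiponectin, was 1675, 1502 and 2153 in sedentary and 4462, 781 and 22796 in active tumours, so active tumours held both the lowest and the 2 highest values. The triglyceride lipase Pnpla2 was 3567, 4826 and 4610.1 against 7578, 3739 and 27735. The beta-3 adrenergic receptor Adrb3 was 523, 486 and 497 against 1692, 247 and 6981, again lowest in active replicate 2. Lipid synthesis genes had medians of 0.00 and 0.16. Scd1, stearoyl-CoA desaturase, was 32912, 22497 and 50856 against 58298, 51962 and 162110.0, separated upward and not past the threshold (limma adjusted p = 0.97).

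The shares of reads taken by the milk list and by the luminal and basal list were lowest in active replicate 3, while the mean log2 level of their members was not lowest there. The milk and secretory list took 2.16, 1.87 and 1.84% of reads in sedentary and 1.51, 2.29 and 0.706% in active tumours, with a median of -0.01 with 6 libraries and 0.06 without active replicate 3. Its separated members were Spp1, above, and Muc15, a membrane mucin, at 9907, 10388 and 17235 against 8739.8, 8406 and 4327. Csn1s2a, a casein gene, was 14.4, 305 and 40.2 against 219.6, 52.5 and 1343, highest in active replicate 3. Luminal and basal genes had medians of -0.28 and -0.06. The basal keratin Krt14 was 1421, 1539.7 and 1585 against 1250.0, 1252 and 879, separated downward without passing (limma adjusted p = 0.97), and its partner Krt5 was 1175, 2641 and 3208 against 1139.7, 394 and 1524. Gata3, a luminal transcription factor, was 4683, 5887 and 5904 against 4071, 4836 and 3526.

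Proliferation genes had a median of -0.17 with 6 libraries and 0.14 without active replicate 3, with 7 and then 26 of 33 positive and none passing with limma. Birc5, survivin, was 2167, 707 and 557 against 628, 860.3 and 341, highest in sedentary replicate 1. Hypoxia and glycolysis genes had medians of -0.28 and -0.24. Slc16a3, the lactate exporter MCT4, was 578, 189.7 and 233 against 107, 137 and 83.6, the 1 member separated with 6 libraries, and not past the threshold (limma adjusted p = 0.97). Glycolytic Gapdh was 55728, 26059 and 25209 against 19283, 28034 and 17499, again highest in sedentary replicate 1. Respiratory chain genes had medians of 0.05 and -0.06, and collagen and matrix genes of 0.22 and 0.08. Pdgfrb, the receptor of pericytes and fibroblasts, was 774, 1303 and 928 against 1509.6, 1268 and 1985.

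Immediate early genes, which respond within minutes to stimuli, had medians of -0.17 and -0.04. With 6 libraries 2 of 26 were separated downward, against 4.78% of all genes tested. The 2 were Egr1, at 2773, 1639.8 and 2363 against 1638, 1017 and 930.0, and Jun, at 4311, 3847 and 5163 against 3825, 2581 and 1974. Of 24 glucocorticoid and clock genes, Bhlhe41, a circadian repressor, was 2096, 1816 and 1853 against 1584, 1137 and 1207, and the list's median was 0.00 and then 0.04. In the growth and insulin axis list, with medians of 0.08 and -0.04, the receptor Igf1r was 413, 529 and 371 against 578, 565 and 918 and the ligand Wnt5a was 1626, 2173 and 1244 against 935, 1222 and 1213, separated in opposite directions. The limma adjusted p was 0.97 for each of these 5 genes. Schwann cell and nerve, skin and hair, and secreted luminal and lacrimal-like lists had medians of -0.05, -0.10 and -0.16 with 6 libraries and -0.14, -0.06 and 0.03 without active replicate 3. With limma, none of the lists outside muscle held a gene that passed in either fit, while DESeq2 on recovered reads called some members, among them Ifit3 and Isg15. Neither Ifit3 nor Isg15 passed with edgeR or limma-voom on recovered reads.

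**Figure D5:**
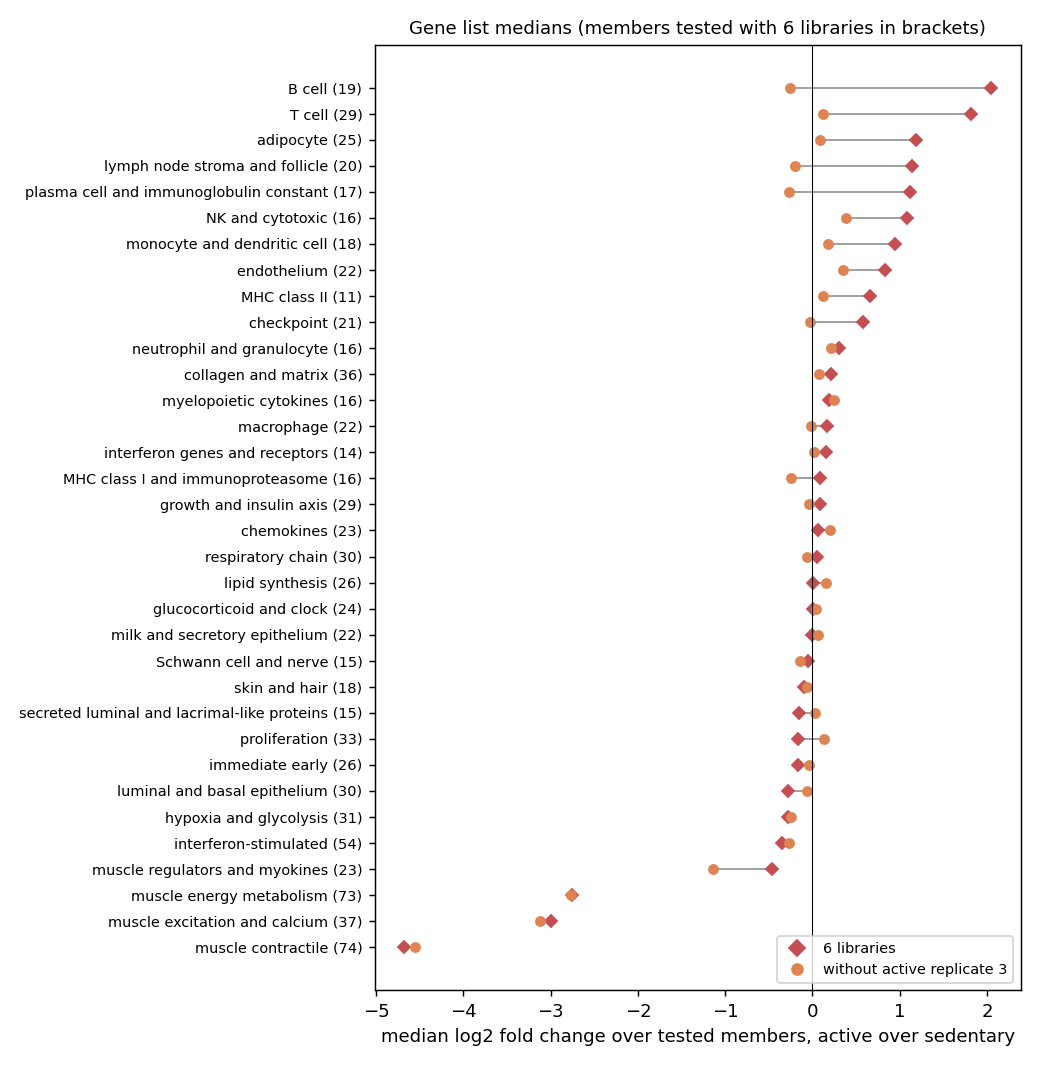
Median log2 fold change, active over sedentary, over the tested members of each of 34 lists, with 6 libraries (red diamonds) and without active replicate 3 (orange circles). The B cell, T cell, plasma cell, lymph node and adipocyte lists shift most between the fits, while the contractile, excitation and energy lists of muscle stay far below 0 in both.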

How the data were processed

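The authors deposited 1 table for the week 12 tumours. Its values are a normalized signal per gene, gene counts divided by 1 size factor per library: 100% of the deposited values in every library were whole multiples of its step (tolerance 0.01). Reads were recovered on that basis, 20838963 to 25764636 per library. Per the labels' protocols, RNA was taken with TRIzol and a stranded kit for mRNA was used. The genome build is mm10, per the submitters' processing notes, and the aligner and counter are not given in the sources used here. The deposited fold changes and p-values were not used.

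Groups and replicate numbers came from the sample titles. The main test was limma 3.58.1 under R 4.3.3, with lmFit and a plain eBayes, on log2(value + 1) of the 3 active and 3 sedentary tumours. Genes were tested where the mean over all libraries in the fit reached 1. Two-sided p-values were adjusted over all genes tested (Benjamini-Hochberg) and called at 0.05. Fold changes on this scale understate the change of low genes. The same fit was repeated without active replicate 3. p-values measure the spread between libraries that the labels call biological replicates.

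Alternatives were pseudocounts of 0.1 and 10, other filters, eBayes with trend and robust options, 2 other scalings, 3 tests of recovered reads (limma-voom, DESeq2 1.42.0 and the quasi-likelihood test of edgeR 4.0.16), a replicate block, fits without 1 library each, and a fit without muscle list genes, which was added after seeing the data. Intervals and floors (3 reads over a group) cover counting error only, since reads carried no molecular identifiers. In a simulation of this comparison, 200 of 19045 genes were shifted by 3 log2 units, and 76.5% of them were called, with 10 other calls.

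The libraries entered by their labels. The choice of this comparison and of the 34 gene lists, drawn up from textbook markers, was made with earlier results of these data known, and the lists of Hox, gamma protocadherin and immunoglobulin variable genes were made after the values were seen. Named were called muscle genes with the 6 largest decreases and up to 10 called genes per direction outside the muscle lists (8 without active replicate 3), each with separated groups and a group mean of 50 or more on the higher side, or the 5 smallest p-values where a direction had none. Up to 4 members per list with the smallest p-values and a mean of at least 10, the 10 genes highest in active replicate 3 by ratio with at least 500 there, and label check markers were added. Predicted genes named only by a number were counted and not named where another gene met the rule. Genes outside the rule are marked in the text as chosen after their values were seen, and the receptor and keratin genes given beside a named list member were chosen that way too. A few genes that met the rule are not reported here. Lists are described by counts and medians, with no test of a list. Coordinates are from GENCODE M21 and promoters from RefSeq (GRCm38.p6), matched by symbol.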

Additional observations from a re-analysis of the deposited data

How the results depend on the processing

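The 99 calls with 6 libraries became 208 with DESeq2, 56 with limma-voom and 0 with the replicate block (812 genes at an unadjusted p under 0.05), and 9 to 72 without 1 library. The 29 calls outside the muscle lists became 18 with trend and robust options, 12 with edgeR, 87 with DESeq2, 4 with limma-voom, 0 with the replicate block and 10 where muscle list genes were left out before the fit, and 5 to 22 without 1 library. The 54 calls without active replicate 3 became 124 with pseudocount 10, 110 with trend and robust options, 82 with edgeR, 255 with DESeq2, 0 with limma-voom (838 genes at an unadjusted p under 0.05) and 0 with the replicate block (949). They were 0 whenever 1 further library was left out (957 to 1366 at an unadjusted p under 0.05). The 22 of them outside the muscle lists became 34 with pseudocount 10, 126 with DESeq2, 13 without muscle list genes in the fit and 0 with limma-voom, with the replicate block (809) or without 1 further library.

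Same-numbered libraries deviated from their group means with correlations of -0.0335, -0.0957 and 0.0924. These values cannot decide whether the numbers pair the samples. Deviations from a mean of 3 libraries are tied to one another, and active replicate 3 stood apart. For the log2 fold changes of named genes, 839 alternative values kept their side of the threshold, 221 no longer passed, 56 newly passed and none reversed. Of the list medians, 297 alternative values stayed within the spread and 7 did not: pseudocount 10 brought the contractile, excitation, energy and joint muscle medians to -3.45, -2.16, -1.70 and -2.04. The Schwann cell and nerve median was -0.21 without sedentary replicate 2 and 0.16 without active replicate 2, and the growth and insulin median 0.51 without active replicate 2. The cause of these changes was not tested. The median log2 fold change of all genes, 0.0118, was -0.0056 and 0.0119 under the other scalings. Without active replicate 3 it was 0.0013, and -0.0057 and -0.0083 under them. A gene at 0 reads in a library could hold up to 3 reads' worth, a normalized count of 2.73 to 3.60.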

Other observations

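Sedentary replicate 1 held the highest level of the 6 libraries for several genes of different lists. Vegfa, the vascular growth factor that hypoxia induces, and Slc2a1, the glucose transporter GLUT1, both of the hypoxia and glycolysis list, were chosen after their values were seen. Vegfa was 6196, 1083 and 1501 in sedentary and 2432, 1402 and 3196 in active tumours, and Slc2a1 was 6107, 1525 and 2291 against 1627, 2026 and 1431. Tyms, thymidylate synthase, of the proliferation list, was 1776, 592 and 493 against 637, 603 and 302. Ltf, lactoferrin, of the neutrophil and the secreted luminal lists, was 58902, 17777 and 20317 against 24181, 12330.0 and 6310.5.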
